A study of Rattus norvegicus with 28 samples.

Results

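The genes described here are the secreted and membrane components of Wnt signalling, measured in the rat renal fibroblast line NRK-49F: Wnt ligands, Frizzled receptors, the co-receptors Lrp5 and Lrp6, R-spondins, the secreted inhibitors of the Sfrp and Dkk families, and Axin2. They were taken by symbol from the deposited expression table, which holds 44 of them among 30178 genes. Measured values played no part in that choice. By role they are 19 Wnt ligands, 10 Frizzleds, 2 Lrp co-receptors, 4 R-spondins, 8 secreted inhibitors and 1 intracellular scaffold, Axin2. Axin1 was not analysed here.

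RNA was sequenced from 4 groups of 2 libraries each. The cells had been grown in 10% fetal calf serum and starved for 24 h in 0.2% serum. The control group received no TGF-β and its label gives no time. Cells of the TGF-β group were given 5 ng per uL of TGF-β1 (unit as labelled) over 48 h. The TGF-β+MetR group had the same TGF-β1 exposure with methionine restriction (MetR), in a medium built from salts, vitamins, dialyzed serum and amino acids that held 30 uM methionine, against 200 uM in its control version. The TGF-β+siHoxc8 group had TGF-β1 for 48 h together with a small interfering RNA against Hoxc8, a homeobox transcription factor. The labels do not say that the TGF-β group was kept in the 200 uM medium, so methionine and the change of medium cannot be told apart. They name no control siRNA for the RNA groups either, so transfection and loss of Hoxc8 cannot be told apart. All groups are 1 cell line, and separate cultures are not stated for a group's libraries, so p-values measure the spread between these libraries, which may be technical. The study asks how methionine restriction acts on the response of kidney fibroblasts to TGF-β, with Hoxc8 as an intermediate. Another 20 samples of the series are chromatin immunoprecipitation and input samples and were not analysed here.

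Wnt proteins are lipid-modified signals that bind Frizzled receptors. Together with Lrp5 or Lrp6, a bound Frizzled stops the destruction of β-catenin, which then acts with TCF/LEF factors in the nucleus. Sfrp proteins bind Wnts, classical Dkk proteins block Lrp5 and Lrp6, and R-spondins keep Frizzleds on the cell surface by removing the ligases that degrade them. Axin2 is a scaffold of the β-catenin destruction complex and a widely used target gene of the pathway, so it feeds back on it. Some Wnts, Wnt5a above all, also act without β-catenin through Ror and planar polarity proteins. In kidney, Wnt4 drives the formation of nephron epithelium in the embryo, and Wnt signalling in fibroblasts is known for its part in fibrosis.

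Values are FPKM, fragment counts corrected for gene length and library size. Comparisons of level between genes rest on the gene lengths used, which were not given. Whole reads could be recovered from the values and numbered 15118113 to 20146870 per library. The labels were checked on their target genes. Hoxc8 stood at 1.12 and 1.34 FPKM in control, 4.32 and 5.01 with TGF-β, 0.417 and 0.614 with MetR added, and 0.463 and 0.0771 with siHoxc8 added. Acta2, the actin gene used to mark myofibroblasts, was at 527 and 550 FPKM with TGF-β and between 11.3 and 47.3 FPKM in the other 6 libraries. Of the other myofibroblast markers listed, Tagln lay between 2.18 and 37.8 FPKM over the 8 libraries and Cnn1 reached at most 0.132 FPKM. Of the 7 fibroblast markers listed, 6 reached 1 FPKM, Thy1 was listed at 0 throughout, and Dcn reached at most 1.08 FPKM. Endothelial markers summed to 0.0694 to 0.908 FPKM, leukocyte markers to 0.485 to 2.73 FPKM and tubule markers to 0.0293 to 1.21 FPKM over the 8 libraries. Of 6 epithelial markers only Krt8 reached 1 FPKM and Epcam was listed at 0. The sum of the 6 was 194 to 252 FPKM in control, TGF-β and TGF-β+MetR and 686 and 646 FPKM in TGF-β+siHoxc8.

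Of the 44 genes, 21 had at least 1 FPKM in at least 2 libraries and were tested, and 18 of these reached 1 FPKM in all 8 libraries. The tested genes were 6 of 19 Wnts, 7 of 10 Frizzleds, both Lrp co-receptors, 2 of 4 R-spondins, 3 of 8 secreted inhibitors and Axin2. Listed at 0 in every library were Dkk1, Dkk2, Fzd10, Sfrp1, Wnt3a, Wnt8a, Wnt8b, Wnt10a, Wnt11 and Wnt16. The other 13, among them Wnt1, Wnt3, Wnt6, Wnt7a, Rspo2 and Sfrp2, were above 0 in at least 1 library but below the filter, with at most 1.08 FPKM and 42 reads. Wnt7b passed only through the siHoxc8 libraries and Wnt2 only through the TGF-β and siHoxc8 libraries, so a difference in these genes was part of being tested. A 0 is reported as listed, since all 13 mitochondrially encoded genes were also listed at 0.

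The most abundant receptor genes stood above every ligand gene in these fibroblasts. In control cells Lrp5 was the most abundant receptor gene, at 132 and 126 FPKM, followed by Fzd2 at 92.4 and 96.6 FPKM, Lrp6 at 66.9 and 64.5 FPKM and Fzd1 at 57.1 and 54.9 FPKM. Rspo1, at 96.2 and 101 FPKM, lay below both Lrp5 values, and its levels overlapped those of Fzd2. Dkk3, a divergent member of the Dickkopf family, was the most abundant inhibitor gene at 44.6 and 42.9 FPKM. The ligand genes led with Wnt5a at 11.0 and 10.5 FPKM, ahead of Wnt9a at 6.50 and 6.47 FPKM, Wnt10b at 6.46 and 5.82 FPKM and Wnt4 at 4.68 and 4.93 FPKM. Wnt9a and Wnt10b did not differ beyond their spread, and the other 2 ligands stood clear of them. Wnt9a had only 71 and 70 reads in control, against 489 and 510 for Wnt4, so its rank depends on the gene length used.

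**Figure D1:**
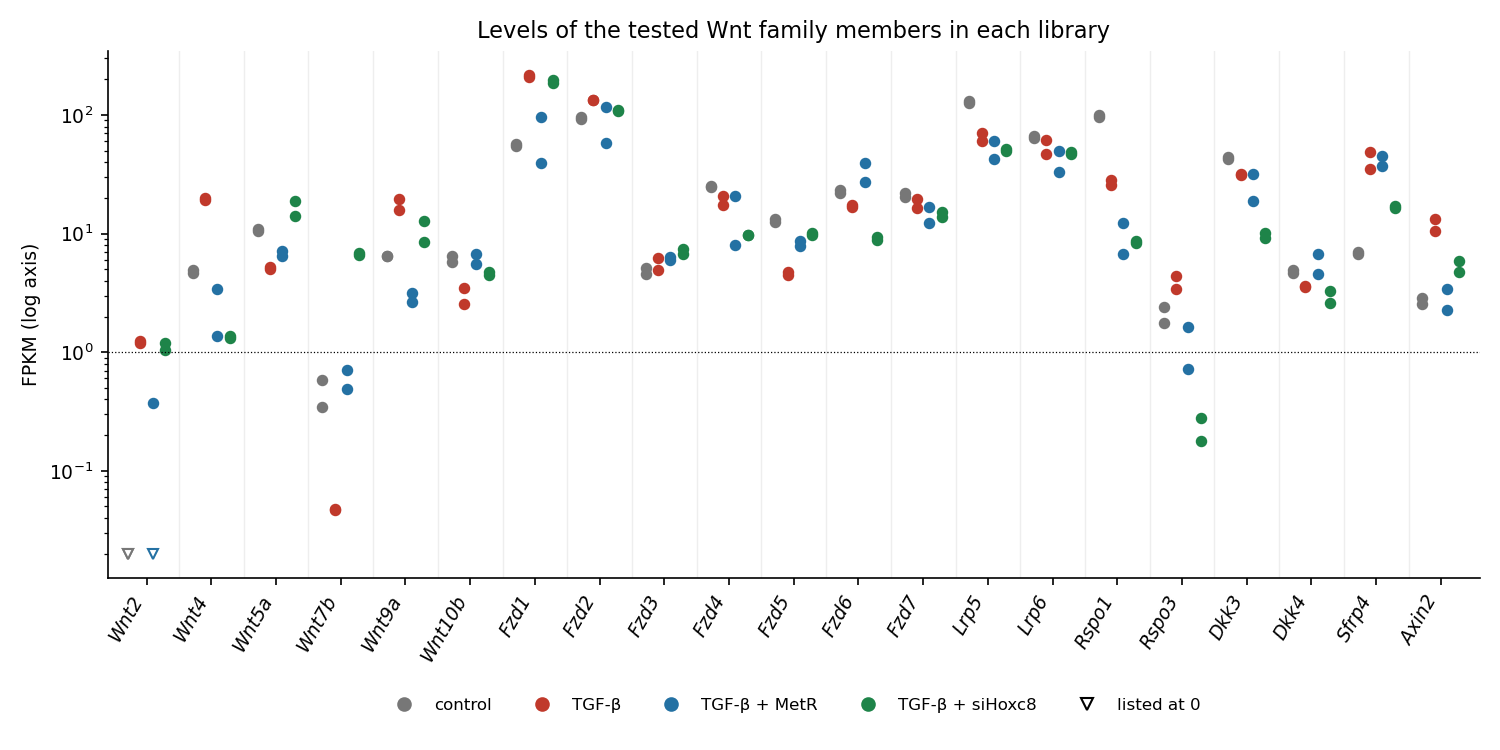
Expression of the 21 tested Wnt pathway genes in each of the 8 libraries, in FPKM on a log scale. Each point is 1 library, colours mark the 4 groups, open triangles mark libraries listed at 0 and the dotted line marks 1 FPKM. Fzd1, Wnt4, Wnt9a, Sfrp4 and Axin2 lie higher with TGF-β than in control, while Rspo1, Lrp5, Fzd5 and Wnt5a lie lower.

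The response to TGF-β was tested first, as TGF-β against control. In this and all other comparisons a change is the difference of log2(FPKM + 1) between groups with its standard error, estimated with limma over all 12315 tested genes, and adjusted p-values are Benjamini-Hochberg values over all of these genes. Fewer cells of a kind and less RNA per cell cannot be told apart in such bulk libraries. Of the 21 genes 6 rose, 6 fell and 9 did not pass the threshold of 0.05. Over all tested genes 38.9% were called, 10.3% as raised and 28.6% as lowered. Median change was -0.28 for the 21 genes and -0.19 for all tested genes. With quantile normalization 8 of the 21 rose and 5 fell, beside 16.9% and 17.1% of all genes, and with median ratio rescaling 7 rose and 5 fell, beside 19.1% and 17.0%. That rescaling moved the median change of all genes by 0.20 in this comparison, by -0.18 for TGF-β+MetR against TGF-β and by -0.14 for TGF-β+siHoxc8 against TGF-β.

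The ligand genes exchanged places under TGF-β. Wnt4 was at 4.68 and 4.93 FPKM in control and at 19.3 and 20.1 FPKM with TGF-β, a 4.1-fold rise (1.84 ± 0.25, adjusted p = 0.00146). Wnt9a, a ligand known from joint formation, went from 6.50 and 6.47 to 19.7 and 15.8 FPKM (1.32 ± 0.20, adjusted p = 0.002). These became the leading ligand genes in FPKM. In reads Wnt9a had 195 and 158 with TGF-β, against 1824 and 1923 for Wnt4, so its rank depends on the gene length used. Wnt2 was listed at 0 in both control libraries and reached 1.25 and 1.19 FPKM with TGF-β (adjusted p = 0.00315). Its filter was passed only through TGF-β and siHoxc8 libraries, so this rise was part of being tested. Wnt5a moved the other way, from 11.0 and 10.5 to 5.22 and 4.99 FPKM (-0.94 ± 0.15, adjusted p = 0.00239). Wnt10b, a ligand of the β-catenin branch, fell from 6.46 and 5.82 to 3.51 and 2.54 FPKM (-0.84 ± 0.16, adjusted p = 0.00578). Its adjusted p was 0.0518 without control replicate 1. None of these 5 ligands had overlapping groups, but that held for 20 of the 21 genes and does not set them apart. The share over all tested genes was not computed. Wnt7b was at 0.344 and 0.579 FPKM in control and at 0.0476 and 0.047 FPKM with TGF-β, which was 64 against 6 reads, a ratio of 9.75 (exact 95% interval 4.24 to 27.6, counting error only). Its adjusted p of 0.0481 passed the threshold but ranged from 0.00492 to 0.234 over 16 alternatives and missed it in 9 of them, including the fit with the replicate number as a block (0.0694) and each fit without a control, TGF-β or siHoxc8 library (0.081 to 0.234).

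Of the Frizzleds, Fzd1 rose and Fzd5 fell. Fzd1 was at 57.1 and 54.9 FPKM in control and at 219 and 209 FPKM with TGF-β, 3.82-fold higher (1.91 ± 0.34, adjusted p = 0.00426), which put it above Fzd2. Fzd5 dropped from 13.4 and 12.6 to 4.73 and 4.51 FPKM, 2.83-fold lower (-1.32 ± 0.11, adjusted p = 0.000179). The other 5 tested Frizzleds did not pass. Fzd2 read 133 FPKM in both TGF-β libraries against 92.4 and 96.6 FPKM in control, so the groups did not overlap, yet its adjusted p was 0.199. Fzd6, a receptor tied to planar polarity, was at 23.4 and 21.8 FPKM and then 17.4 and 16.9 FPKM (adjusted p = 0.108). Both Fzd2 and Fzd6 passed with only the 2 groups compared, a fit that called 16 of the 21 genes. Over all tested genes that fit called 1491 as raised and 3866 as lowered, against 1269 and 3523 in the main fit. Fzd4, which also binds Norrin, gave 24.5 and 25.0 and then 20.9 and 17.6 FPKM (adjusted p = 0.454). Fzd7 was at 20.4 and 21.9 FPKM and then at 19.6 and 16.3 FPKM (adjusted p = 0.283), and Fzd3 stood at 4.57 to 6.22 FPKM over the 4 libraries (adjusted p = 0.403). Of the co-receptors, Lrp5 fell from 132 and 126 to 70.3 and 60.5 FPKM (-0.98 ± 0.17, adjusted p = 0.00353). Lrp6, at 66.9 and 64.5 FPKM in control and 61.9 and 46.9 FPKM with TGF-β, did not pass (adjusted p = 0.3).

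Among the secreted modulators Rspo1 and Sfrp4 moved in opposite directions. Rspo1 fell from 96.2 and 101 to 25.8 and 28.3 FPKM, 3.65-fold lower (-1.83 ± 0.23, adjusted p = 0.000907). Rspo3 was at 1.76 and 2.42 FPKM in control and at 3.39 and 4.36 FPKM with TGF-β, and its adjusted p of 0.0596 missed the threshold, with 0.0104 to 0.269 over 16 alternatives. Sfrp4 rose 6.11-fold, from 6.74 and 6.99 to 34.8 and 49.2 FPKM (2.43 ± 0.17, adjusted p = 0.000105), and with TGF-β it stood above Dkk3. Dkk3 (44.6 and 42.9, then 31.1 and 31.9 FPKM, adjusted p = 0.112) and Dkk4 (4.64 and 4.91, then 3.60 and 3.56 FPKM, adjusted p = 0.175) did not pass. With only the 2 groups compared Dkk3 passed. Axin2 rose from 2.86 and 2.57 to 13.3 and 10.5 FPKM, a 4.37-fold rise (1.79 ± 0.19, adjusted p = 0.000481).

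**Figure D2:**
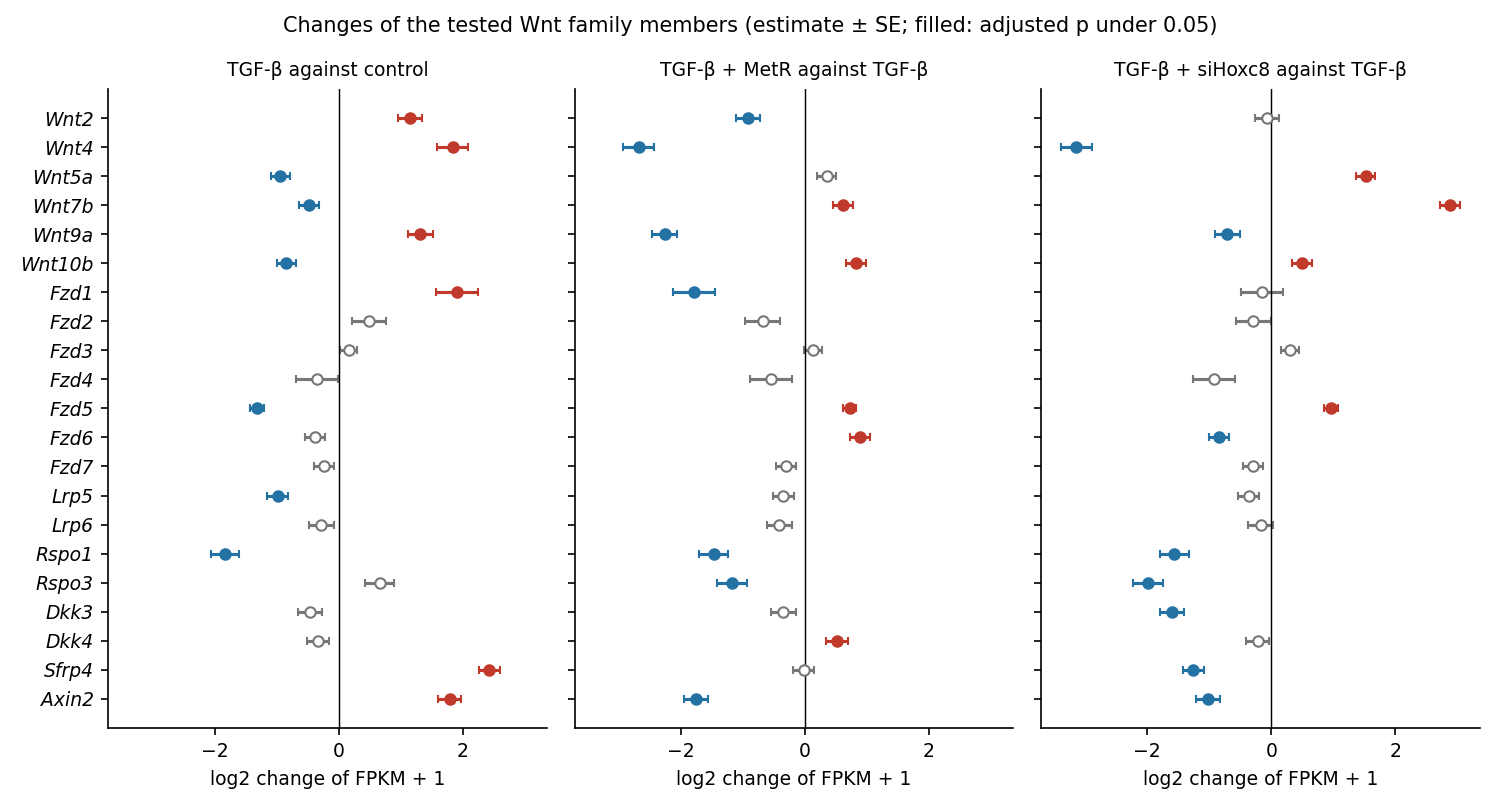
Change of the 21 tested Wnt pathway genes in the 3 main comparisons, as the difference of log2(FPKM + 1) with its standard error from limma. Filled points passed the adjusted p threshold of 0.05, red for higher and blue for lower. The 3 comparisons share the TGF-β libraries. Fzd1 passed as lower with MetR (-1.79) and not with siHoxc8 (-0.15), and Sfrp4 passed as lower with siHoxc8 (-1.26) and not with MetR (-0.02).

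Sequence upstream of the start site is shown for 5 genes that changed with TGF-β, Axin2, Wnt4, Wnt9a and Fzd1 as genes that rose and Wnt5a as one that fell. These are the 250 bases before the annotated start, 5′ to 3′ on the strand of the gene, from RefSeq on the build GRCr8, which is later than the rn6 build listed for the series. Each stretch lies upstream of its gene and outside its transcript as annotated there. Axin2 is at chr10:94398535-94398784, Wnt4 at chr5:154797200-154797449, Wnt9a at chr10:44593441-44593690, Fzd1 at chr4:30264824-30265073 and Wnt5a at chr16:3703415-3703664, all on the plus strand. Capitals mark matches, on either strand, to the TCF/LEF core CTTTGA, the Smad motifs GTCTAG and CAGACA, the homeobox cores TTATTG and TAATTA, or TATAAA, the last added after the other motifs had been listed.
Axin2: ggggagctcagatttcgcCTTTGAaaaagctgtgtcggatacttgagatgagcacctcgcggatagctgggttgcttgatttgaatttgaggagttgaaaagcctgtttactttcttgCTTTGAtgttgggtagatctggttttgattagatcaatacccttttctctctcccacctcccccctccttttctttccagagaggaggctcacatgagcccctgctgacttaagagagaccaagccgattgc
Wnt4: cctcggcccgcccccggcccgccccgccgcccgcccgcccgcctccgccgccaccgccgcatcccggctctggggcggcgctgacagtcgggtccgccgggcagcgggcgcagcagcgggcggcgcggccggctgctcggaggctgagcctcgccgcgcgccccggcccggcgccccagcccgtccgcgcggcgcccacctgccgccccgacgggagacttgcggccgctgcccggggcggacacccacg
Wnt9a: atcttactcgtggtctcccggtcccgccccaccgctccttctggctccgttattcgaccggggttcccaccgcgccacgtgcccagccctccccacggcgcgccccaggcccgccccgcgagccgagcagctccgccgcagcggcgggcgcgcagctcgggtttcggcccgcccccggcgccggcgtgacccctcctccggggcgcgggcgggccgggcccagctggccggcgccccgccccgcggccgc
Fzd1: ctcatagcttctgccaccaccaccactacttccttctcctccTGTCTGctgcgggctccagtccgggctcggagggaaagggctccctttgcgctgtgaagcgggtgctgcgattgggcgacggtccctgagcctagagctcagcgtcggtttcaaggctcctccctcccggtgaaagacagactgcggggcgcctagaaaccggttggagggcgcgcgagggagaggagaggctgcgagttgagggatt
Wnt5a: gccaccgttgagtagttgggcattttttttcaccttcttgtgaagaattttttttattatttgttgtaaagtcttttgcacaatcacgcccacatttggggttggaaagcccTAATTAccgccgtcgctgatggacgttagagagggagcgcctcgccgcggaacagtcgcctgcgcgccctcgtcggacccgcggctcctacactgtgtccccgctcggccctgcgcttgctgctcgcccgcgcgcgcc

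The 5 sequences differ in composition. Wnt4 and Wnt9a have 86.4% and 81.2% G and C, with 47 and 41 CpG dinucleotides in 250 bases, and hold none of the motifs. Axin2 has 47.6% G and C, 5 CpG and CTTTGA at positions -232 and -132 relative to the start. Fzd1 has 63.6% and 18 CpG and holds CAGACA on the other strand at position -208. Wnt5a has 57.2% and 25 CpG and holds TAATTA, a palindrome, at position -138. Of all 44 genes 29 had an entry in the table. Their median was 65.6% G and C and 21 CpG, beside 51.2% and 5 over 33469 promoters. CTTTGA stood in 4 of the 29, beside 13.9% of all promoters, CAGACA in 6 beside 17.2%, GTCTAG in 2 beside 7.32%, TAATTA in 2 beside 4.86%, TTATTG in 0 beside 9.24% and TATAAA in 1 beside 12.9%. A match is a run of letters and no evidence of binding.

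TGF-β with methionine restriction was then set against TGF-β alone. Of the 21 genes 7 fell, 5 rose and 9 did not pass. Over all tested genes 53.9% were called, 34.8% as raised and 19.0% as lowered. The median change was -0.35 for the 21 genes and 0.18 for all genes. With median ratio rescaling 11 of the 21 fell and 4 rose, beside 26.6% and 25.5% of all genes, and with quantile normalization 8 fell and 4 rose, beside 24.9% and 26.7%.

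The 3 ligand genes that had risen with TGF-β were lower when methionine was restricted. The same TGF-β libraries served in both comparisons, which favours a fall in genes chosen for a rise. Wnt4 was at 3.38 and 1.38 FPKM against 19.3 and 20.1 FPKM with TGF-β alone, 8.28-fold lower (-2.68 ± 0.25, adjusted p = 0.000216). Wnt9a, at 3.17 and 2.63 FPKM, was 6.13-fold lower (-2.26 ± 0.20, adjusted p = 0.000166). Wnt2 was at 0.373 FPKM in replicate 1 and listed at 0 in replicate 2 (-0.92 ± 0.19, adjusted p = 0.00515). It passed the filter only through TGF-β and siHoxc8 libraries, so this fall was part of being tested. Wnt4 and Wnt9a had no MetR value above any control value. Wnt10b rose to 6.75 and 5.50 FPKM, 2.03-fold above TGF-β alone (0.83 ± 0.16, adjusted p = 0.00377). Wnt7b rose to 0.714 and 0.485 FPKM, 89 against 6 reads in the TGF-β libraries, a ratio of 12.8 (exact 95% interval 5.68 to 35.9), with an adjusted p of 0.0142 that became 0.0519 without TGF-β replicate 2. Wnt5a, at 7.10 and 6.45 FPKM against 5.22 and 4.99 FPKM, did not pass (0.35 ± 0.15, adjusted p = 0.0799).

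Frizzled genes split in direction. Fzd1 was at 95.7 and 39.1 FPKM, 3.17-fold below TGF-β alone (-1.79 ± 0.34, adjusted p = 0.00358). Fzd5 was raised 1.79-fold to 8.64 and 7.86 FPKM (0.72 ± 0.11, adjusted p = 0.00125) and Fzd6 was raised 1.94-fold to 39.4 and 27.1 FPKM (0.89 ± 0.16, adjusted p = 0.00322). Fzd6 was thereby above its control values of 23.4 and 21.8 FPKM. Lrp5 at 61.0 and 42.5 FPKM (adjusted p = 0.11) and Lrp6 at 49.8 and 32.8 FPKM (adjusted p = 0.125) did not pass against TGF-β alone. Fzd2 (118 and 57.6 FPKM, adjusted p = 0.0702), Fzd4 (20.6 and 8.0 FPKM, adjusted p = 0.223), Fzd7 (16.7 and 12.4 FPKM, adjusted p = 0.149) and Fzd3 (5.97 and 6.33 FPKM, adjusted p = 0.454) did not pass either.

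Both tested R-spondin genes fell. Rspo1 was at 12.3 and 6.71 FPKM, 2.84-fold below TGF-β alone (-1.47 ± 0.23, adjusted p = 0.00143). Rspo3 was at 1.64 and 0.725 FPKM, 3.27-fold lower (-1.18 ± 0.24, adjusted p = 0.00438). Rspo1 thus fell with TGF-β and lay lower again with MetR. Axin2 was at 3.38 and 2.25 FPKM, 4.22-fold below TGF-β alone (-1.76 ± 0.19, adjusted p = 0.000333). Sfrp4, at 37.1 and 45 FPKM, overlapped its TGF-β values of 34.8 and 49.2 FPKM (-0.02 ± 0.17, adjusted p = 0.938). Dkk3 was at 31.6 and 19.0 FPKM and did not pass (adjusted p = 0.189). Dkk4, a classical Dickkopf, was 1.58-fold higher at 4.59 and 6.75 FPKM (0.52 ± 0.18, adjusted p = 0.0389), a call that was lost in 12 of 16 alternatives, with an adjusted p of up to 0.161.

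The 2 MetR libraries differed in these genes more than the libraries of other groups. Of the 21 genes 18 were higher in MetR replicate 1, with a median ratio of 1.46 between the replicates, whereas 41.1% of all tested genes were higher there and their median ratio was 0.94. The corresponding counts were 11 of 21 in control, 16 of 21 with TGF-β and 9 of 21 with siHoxc8, with median ratios of 1.02, 1.05 and 0.98. Over all genes, 372 differed at least 2-fold between the MetR replicates, against 152, 162 and 166 in control, TGF-β and siHoxc8. Without MetR replicate 2, Fzd1 changed by -1.15, Rspo1 by -1.07, Wnt4 by -2.24, Axin2 by -1.55 and Fzd6 by 1.15 against TGF-β. Without MetR replicate 1 these changes were -2.42, -1.86, -3.12, -1.98 and 0.63, so each kept its direction. Without replicate 1, Fzd2 changed by -1.20, Fzd4 by -1.17 and Dkk3 by -0.70. Without replicate 2, Fzd4 (0.09) and Dkk3 (0.01) were close to 0 and Fzd2 was at -0.17. The part of this difference between libraries in the results was not tested further.

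**Figure D3:**
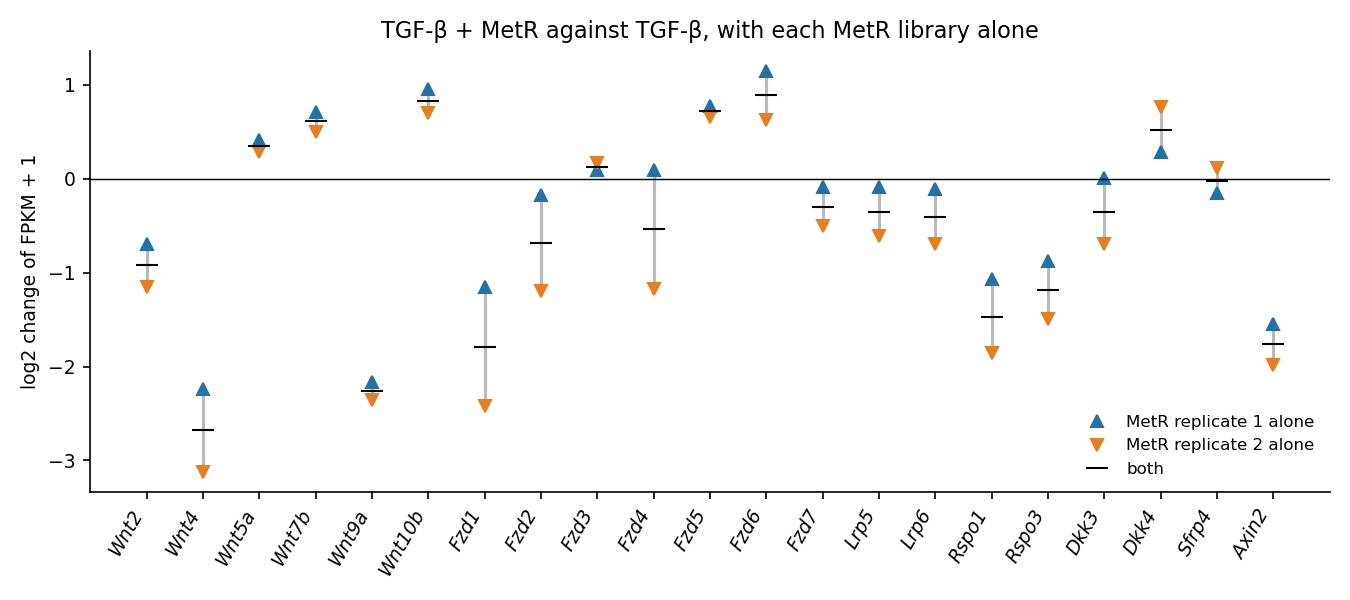
Change of the 21 tested Wnt pathway genes in TGF-β+MetR against TGF-β, as the difference of log2(FPKM + 1), with only MetR replicate 1 (upward triangles), only MetR replicate 2 (downward triangles) and both (bars). Replicate 1 lies above replicate 2 in 18 of the 21 genes, and Fzd1 shows one of the widest gaps, with -1.15 and -2.42.

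TGF-β with siHoxc8 was also set against TGF-β alone. Of the 21 genes 8 fell, 4 rose and 9 did not pass. Over all tested genes 43.8% were called, 28.1% as raised and 15.7% as lowered. The median change was -0.29 for the 21 genes and 0.13 for all genes. With median ratio rescaling 10 of the 21 fell and 3 rose, beside 22.3% and 20.9% of all genes, and with quantile normalization 9 fell and 3 rose, beside 21.7% and 22.1%. Krt8 stood at 685 and 646 FPKM in these libraries against 194 to 252 FPKM in the other 6, while Epcam was listed at 0, and the part of this in the results was not tested. This comparison shares the TGF-β libraries with both comparisons above.

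The ligand genes again moved in both directions, with Wnt4 down and Wnt5a and Wnt7b up. Wnt4 was at 1.36 and 1.33 FPKM, 14.6-fold below TGF-β alone (-3.14 ± 0.25, adjusted p = 0.000127) and below both control libraries. Wnt9a, at 12.8 and 8.5 FPKM, was 1.67-fold lower (-0.71 ± 0.20, adjusted p = 0.022) but missed the threshold without TGF-β replicate 1 (0.127) and without siHoxc8 replicate 2 (0.136). Wnt2, at 1.19 and 1.04 FPKM, was near its TGF-β values (-0.07, adjusted p = 0.78). Wnt5a was raised 3.25-fold to 19.0 and 14.2 FPKM (1.52 ± 0.15, adjusted p = 0.000259), above every library of the other groups. Wnt7b, a ligand known from the epithelium of the kidney's collecting duct, was at 6.57 and 6.85 FPKM, where no other library exceeded 0.714 FPKM (2.88 ± 0.16, adjusted p = 3.34e-05). In reads this was 871 against 6, a ratio of 142 (exact 95% interval 65.1 to 388). Wnt7b passed the filter only through the siHoxc8 libraries, so its difference here was part of being tested. Wnt10b, at 4.52 and 4.75 FPKM, was 1.54-fold higher (0.50 ± 0.16, adjusted p = 0.0378), a call lost in 9 of 16 alternatives with an adjusted p of up to 0.172.

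Fzd1 kept a high level with siHoxc8, at 188 and 198 FPKM against 219 and 209 FPKM with TGF-β alone (-0.15 ± 0.34, adjusted p = 0.749). Fzd5 rose 2.15-fold to 9.70 and 10.1 FPKM (0.96 ± 0.11, adjusted p = 0.000477), and Fzd6 fell 1.88-fold to 8.90 and 9.35 FPKM (-0.84 ± 0.16, adjusted p = 0.00527). Fzd6 had its lowest values of the 8 libraries here. Fzd4, at 9.68 and 9.74 FPKM against 20.9 and 17.6 FPKM, did not pass (-0.92 ± 0.34, adjusted p = 0.0645), but it passed in 8 of 17 alternatives, with the replicate block and without either MetR library among them (0.000484 to 0.237 over all). Fzd2 (108 and 110 FPKM, adjusted p = 0.429), Fzd3 (7.36 and 6.69 FPKM, adjusted p = 0.121), Fzd7 (15.2 and 13.8 FPKM, adjusted p = 0.18), Lrp5 (49.6 and 51.6 FPKM, adjusted p = 0.115) and Lrp6 (47.0 and 48.7 FPKM, adjusted p = 0.531) did not pass. With only the 2 groups compared Fzd2 and Lrp5 passed. Over all tested genes that fit called 3809 as raised and 2135 as lowered, against 3460 and 1934 in the main fit.

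Both tested R-spondins, 2 of the 3 tested inhibitors and Axin2 fell with siHoxc8. Rspo1 was at 8.72 and 8.26 FPKM, 3.18-fold below TGF-β alone (-1.56 ± 0.23, adjusted p = 0.00142). Rspo3 was at 0.279 and 0.179 FPKM, 16.9-fold lower (-1.98 ± 0.24, adjusted p = 0.000612). Dkk3 fell 3.24-fold to 9.26 and 10.1 FPKM (-1.60 ± 0.20, adjusted p = 0.000835), and Sfrp4 fell 2.52-fold to 16.3 and 17.1 FPKM (-1.26 ± 0.17, adjusted p = 0.00102). The siHoxc8 values of these 4 genes lay below both TGF-β values, but 19 of the 21 genes had groups that did not overlap. Such a gap therefore does not set them apart, and the share over all tested genes was not computed. Dkk4, at 2.61 and 3.29 FPKM, did not pass (-0.22). Axin2 fell 2.23-fold, to 5.85 and 4.79 FPKM (-1.02 ± 0.19, adjusted p = 0.00401), which left it above both control libraries.

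MetR and siHoxc8 were compared directly, as TGF-β+siHoxc8 against TGF-β+MetR. Of the 21 genes 6 were higher and 5 lower with siHoxc8, while over all genes 54.2% were called, 24.9% as higher and 29.3% as lower. Fzd1 (1.64 ± 0.34, adjusted p = 0.00508), Wnt9a (1.56 ± 0.20, adjusted p = 0.000498), Wnt5a (1.17 ± 0.15, adjusted p = 0.000488), Wnt7b (2.27 ± 0.16, adjusted p = 4.45e-05) and Wnt2 (0.85, adjusted p = 0.00726) were higher with siHoxc8. Sfrp4 (-1.24 ± 0.17, adjusted p = 0.000725), Fzd6 (-1.73 ± 0.16, adjusted p = 0.000153) and Dkk3 (-1.26 ± 0.20, adjusted p = 0.0017) were lower with siHoxc8. These 8 genes kept their call in every alternative run. Wnt7b and Wnt2 passed the filter through siHoxc8 or TGF-β libraries and through no MetR library, so their difference here was part of being tested. Both were too low for the alternative with a mean of at least 5 FPKM. Axin2 (0.74, adjusted p = 0.0126) and Dkk4 (-0.74, adjusted p = 0.00968) missed the threshold without siHoxc8 replicate 1, with 0.086 and 0.0708. Rspo3 (-0.80, adjusted p = 0.0227) missed it without either siHoxc8 library (0.0667 and 0.098) and without MetR replicate 1 (0.0877). No difference was called in Wnt4 (-0.46 ± 0.25, adjusted p = 0.159) or Rspo1 (-0.10 ± 0.23, adjusted p = 0.745), which does not show that the treatments act alike on them.

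Against control, which shows how far each combined treatment lay from untreated cells, Rspo1, Lrp5, Wnt4, Dkk3, Fzd5 and Fzd7 were called as lower in both. Rspo1 changed by -3.30 ± 0.23 with TGF-β+MetR (adjusted p = 3.65e-05) and by -3.39 ± 0.23 with TGF-β+siHoxc8 (adjusted p = 4.22e-05), and Lrp5 by -1.33 (adjusted p = 0.000425) and -1.34 (adjusted p = 0.000609). Dkk3 changed by -0.81 with MetR (adjusted p = 0.0113) and by -2.06 ± 0.20 with siHoxc8 (adjusted p = 0.000233). Its MetR call was lost with the 2 groups alone and without control replicate 1. Wnt4 changed by -0.85 with MetR (adjusted p = 0.0227, and 0.0777 and 0.0952 without control replicates 1 and 2) and by -1.31 ± 0.25 with siHoxc8 (adjusted p = 0.00436). The siHoxc8 calls of Dkk3 and Wnt4 were kept in every alternative. Fzd5 changed by -0.60 with MetR (adjusted p = 0.00224) and by -0.36 with siHoxc8 (adjusted p = 0.0253), and Fzd7 by -0.52 (adjusted p = 0.0228) and -0.51 (adjusted p = 0.0292). The siHoxc8 calls of Fzd5 and Fzd7 were lost with median ratio rescaling and without either control or either siHoxc8 library. That of Fzd5 was also lost with quantile normalization, and that of Fzd7 without the filter on low values. With the 2 groups alone, or without either control library or MetR replicate 2, the MetR call of Fzd7 was lost. Sfrp4 was higher than control in both, by 2.41 ± 0.17 with MetR (adjusted p = 3.99e-05) and by 1.17 with siHoxc8 (adjusted p = 0.00122). With MetR, Axin2 (0.02 ± 0.19, adjusted p = 0.928), Fzd1 (0.13 ± 0.34, adjusted p = 0.77) and Wnt10b (-0.01, adjusted p = 0.972) were not called against control. Wnt9a was below control with MetR (-0.94, adjusted p = 0.00462). With siHoxc8, Fzd1 was above control (1.77 ± 0.34, adjusted p = 0.00423), as was Wnt7b (2.40 ± 0.16, adjusted p = 4.22e-05). The Wnt7b difference was again part of being tested. Axin2 was also above control with siHoxc8 (0.76, adjusted p = 0.0126), a call lost without control replicate 2 or siHoxc8 replicate 1. Wnt5a was below control with MetR (-0.60, adjusted p = 0.00968) and above it with siHoxc8 (0.57, adjusted p = 0.0143). Fzd6 was above control with MetR (0.51, adjusted p = 0.0299), a call lost in 10 of 17 alternatives. With siHoxc8 Fzd6 was below control (-1.22, adjusted p = 0.000893). In all 2 of the 21 genes were higher and 9 lower with MetR, beside 28.0% and 29.3% of all genes and 57.3% in either direction. With the 2 groups alone the 11 called became 6. Over all tested genes 2875 were then called as higher and 3145 as lower, against 3452 and 3607 in the main fit. Fewer of the 21 were also called without either control library, as was so over all tested genes. With siHoxc8 8 were higher and 10 lower, beside 21.7% and 27.0% and 48.7% in either direction. The 18 called became fewer without any single control, TGF-β or siHoxc8 library. Over all tested genes the number called fell in those fits too. With median ratio rescaling and with quantile normalization 16 were called. Over all genes 3101 and 3204 were then higher and 3037 and 3057 lower. Without the low-value filter 15 were called, and of 19435 genes 2589 were higher and 3316 lower. With a mean of at least 5 FPKM 14 of 16 were called, and of 8984 genes 2249 were higher and 2444 lower.

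Summed over all genes of a role, including those below the filter, the roles stood at different levels in the groups, described here without a test because 2 libraries against 2 cannot reach a small exact permutation p. Wnt ligands summed to 29.2 ± 0.535 FPKM in control (SD, n = 2, as for all sums), 47.2 ± 3.12 with TGF-β, 19.6 ± 3.92 with TGF-β+MetR and 42.4 ± 6.53 with TGF-β+siHoxc8. Wnt5a led the sum in control, MetR and siHoxc8, and Wnt9a or Wnt4 did with TGF-β. Frizzleds summed to 237 ± 0.589, 412 ± 13.9, 232 ± 104 and 353 ± 7.52 FPKM in the same order, with Fzd1 leading with TGF-β and with siHoxc8 and Fzd2 in the other groups. R-spondins summed to 101 ± 3.89, 30.9 ± 2.43, 10.7 ± 4.62 and 8.72 ± 0.392 FPKM, and Rspo1 held 86.6% to 98.1% of each sum. The inhibitors summed to 55.4 ± 0.813, 77.1 ± 10.7, 72.1 ± 1.74 and 29.4 ± 1.77 FPKM, with Dkk3 leading in control and Sfrp4 in the treated groups.

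**Figure D4:**
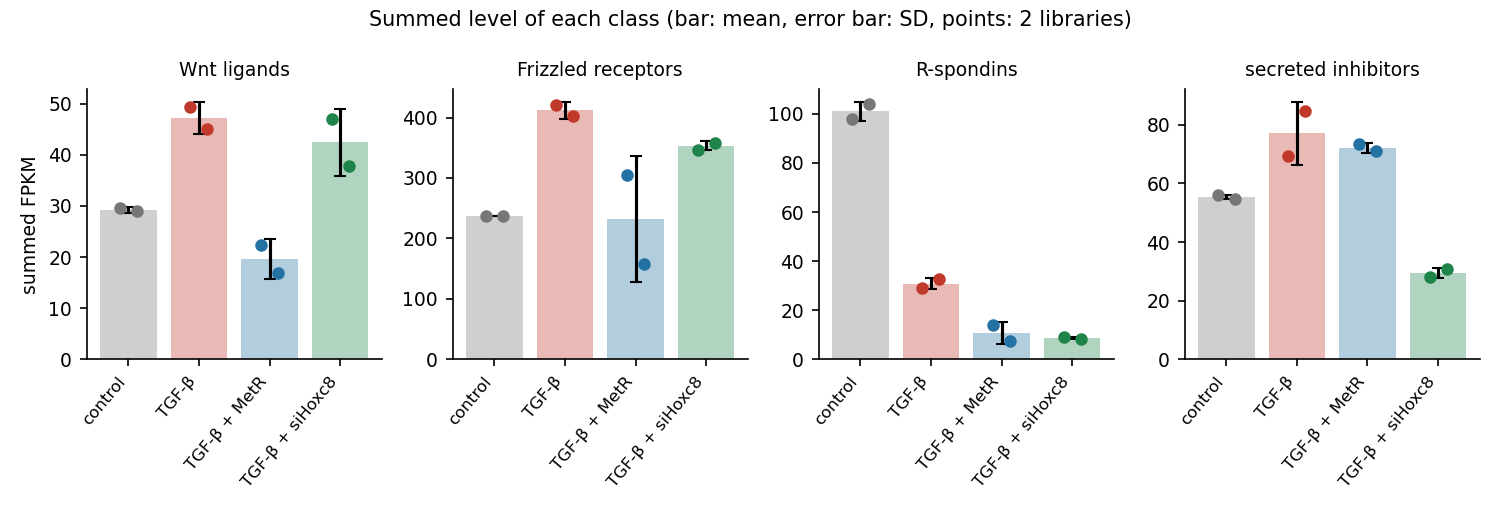
Summed FPKM of Wnt ligands, Frizzleds, R-spondins and secreted Wnt inhibitors in each library (points), with the group mean (bars from 0) and SD. R-spondins average 101 FPKM in control and 8.72 FPKM with siHoxc8, and the inhibitors are lowest with siHoxc8 at 29.4 FPKM.

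Other genes of the pathway were read from the same fit, in 7 lists by function, some of which share genes. The share of all genes called stands beside the counts of the longer lists below. Porcn, which attaches the lipid to Wnts, and Wls, which carries Wnts to the cell surface, make up the secretion list. With TGF-β and with MetR 0 of these 2 passed in limma, 0 at an unadjusted p under 0.05 and 0 with limma-voom. With siHoxc8, Wls fell by 0.40 on the log2 scale, a call lost without either siHoxc8 library (0.0546 and 0.0816). Of 8 further secreted inhibitors 3 were tested, and with TGF-β 0 passed in limma, at an unadjusted p under 0.05 or with limma-voom. Wif1, which binds Wnts outside the cell, was at 0.330 and 0.435 FPKM with TGF-β and at 6.10 and 5.74 FPKM with siHoxc8 added. It passed the filter only through the siHoxc8 libraries, so its difference there was part of being tested. Trabd2b, a protease that cleaves Wnts, fell to 4.90 FPKM in both siHoxc8 libraries from 23.1 and 19.6 FPKM (-1.92 ± 0.22). Its fall with MetR (-0.79) was lost without TGF-β replicate 1 (0.102). Apcdd1, a membrane inhibitor of Wnt signalling, was lower with siHoxc8 (-1.35), a call lost without either TGF-β library or siHoxc8 replicate 1 (up to 0.0599). Of the receptors for R-spondins and Dickkopfs, the enzymes of Frizzled turnover included, 2 of 7 were tested. Kremen1, a Dickkopf receptor, rose with TGF-β from 2.51 and 2.59 to 6.15 and 6.91 FPKM (1.08 ± 0.19). Its fall with MetR (-0.74 ± 0.19) was lost without TGF-β replicate 2 (0.0774). With siHoxc8 0 of the 2 passed in limma, against 1 at an unadjusted p under 0.05 and 1 with limma-voom.

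Of 11 tested genes for other Wnt receptors and planar polarity, 2 rose and 4 fell with TGF-β, beside 10.3% and 28.6% of all genes. The 4 include Celsr2, at 1.37 and 1.65 FPKM in control and 0.391 and 0.49 FPKM with TGF-β. It passed the filter only through control and siHoxc8 libraries. Its fall here and its rise with siHoxc8 (0.58) were thus part of being tested. Ptk7, a co-receptor, fell from 30.8 and 28.7 to 10.6 and 10.3 FPKM (-1.43), Vangl1 fell by 1.35 and Prickle1, another planar polarity gene, rose by 1.48. Ror1, a Wnt5a receptor, was also lower (-0.85), a call lost without any single control or TGF-β library (up to 0.116). Against TGF-β alone 4 rose and 2 fell with MetR, beside 34.8% and 19.0%, among them Ptk7 (1.18), Vangl1 (1.16), Prickle1 (0.81) and Scrib (0.61). With siHoxc8 5 rose and 2 fell, beside 28.1% and 15.7%, with Ptk7 (1.26), Prickle1 (1.18) and Vangl1 (0.92) higher and Ryk, a Wnt receptor, lower (-1.31). Vangl2 was higher too (0.93), a call lost without TGF-β replicate 2 or either siHoxc8 library (up to 0.103). Ptk7 and Vangl1 thus fell with TGF-β and were higher with MetR and with siHoxc8 than with TGF-β alone, while Prickle1 rose in all 3 comparisons.

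In the cytoplasmic control of β-catenin, 2 of 19 tested genes rose with TGF-β and 0 fell in limma, beside 10.3% and 28.6% of all genes, with 2 lower at an unadjusted p under 0.05 and 1 with limma-voom. The risers were Nkd1 (1.94) and Dact1 (1.20), which both act on Dishevelled. Dact1 passed the filter only through the TGF-β and siHoxc8 libraries, so its differences from control and with MetR were part of being tested. With MetR 2 rose and 5 fell, beside 34.8% and 19.0%. Nkd1 (-1.27) was lower but lost its call without TGF-β replicate 2 (0.0542), Dact1 was lower (-1.03), Dact3 (-0.85) lost its call without TGF-β replicate 1 (0.0609), and Csnk1d, a casein kinase, was higher (0.63). With siHoxc8 2 rose and 2 fell, beside 28.1% and 15.7%, with Dvl1, a Dishevelled, lower (-0.82). The calls of Ctnnbip1 (0.74), Dact1 (0.55) and Dvl2 (-0.40) in that comparison were lost when single libraries were left out, either siHoxc8 library among them, with adjusted p-values of up to 0.0651, 0.188 and 0.165. The mRNA of β-catenin itself, Ctnnb1, chosen after its values were seen, was at 123 to 153 FPKM over the 8 libraries and was not called in the 3 main comparisons.

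Among 12 TCF/LEF factors and cofactors 3 rose and 3 fell with TGF-β, beside 10.3% and 28.6% of all genes. Tcf7l2 fell (-1.63), Lef1 rose (1.27) and Tle3, a corepressor, fell (-0.85), while the fall of Tcf7l1 (-0.67) was lost without any single control, TGF-β or siHoxc8 library (up to 0.174). With MetR 4 rose and 1 fell, beside 34.8% and 19.0%, with Tle3 (1.15), the β-catenin cofactor Bcl9 (1.02) and Tcf7l2 (0.63) higher and Tcf7 lower (-0.88). With siHoxc8 4 rose and 1 fell, beside 28.1% and 15.7%, with Tcf7l2 (1.28), Tle3 (0.81), Bcl9 (0.63) and Lef1 (0.50) higher, Lef1 with a call lost without TGF-β replicate 1 (0.0773) or siHoxc8 replicate 1 (0.115). Tcf7l2 was at 31.9 and 29.9 FPKM in control, 9.18 and 9.48 with TGF-β, 16.4 and 13.6 with MetR added and 24.0 and 24.2 with siHoxc8 added. Tcf7l2 and Tle3 thus fell with TGF-β and were higher in both combined treatments than with TGF-β alone. Lef1 stood at 7.44 and 6.40 FPKM in control, 16.9 and 19.4 with TGF-β, 20.2 and 21.8 with MetR added and 27.5 and 24.4 with siHoxc8 added, and its change with MetR did not pass (0.20, adjusted p = 0.201).

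A list of 16 genes known as β-catenin targets in several tissues had 11 tested members. With TGF-β 6 rose and 1 fell, beside 10.3% and 28.6% of all genes, with a median of 0.57 against -0.19 for all genes. Risers included Nkd1 (1.94), Ccn4 (1.62), Lef1 (1.27) and Dact1 (1.20), the last with the filter as above, and Ccnd1, which encodes cyclin D1, fell (-1.13). Many of these genes answer to other signals as well. With MetR 5 rose and 3 fell against TGF-β alone, beside 34.8% and 19.0%, with a median of 0.20 against 0.18. Sox9 (1.93), Myc (1.75) and Ccnd1 (1.16) were higher and Nkd1 was lower (-1.27, lost without TGF-β replicate 2 at 0.0542). With siHoxc8 5 rose and 1 fell, beside 28.1% and 15.7%, with a median of 0.31 against 0.13. Sox9 (1.36) and Ccnd1 (1.18) were higher, Apcdd1 was the gene that fell, and Cd44, a cell adhesion receptor, was higher (0.56), a call lost without any single control, TGF-β or siHoxc8 library (up to 0.119).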

How the data were processed

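RNA-seq libraries of NRK-49F cells were grouped by their titles into 4 groups of 2. The authors deposited 1 table of FPKM values with gene symbols, per the labels. Named without roles, per the submitters' processing notes, are featureCounts, deepTools, Trim Galore, Bowtie2 2.3.5.1 and the build rn6. The aligner of the RNA reads, the annotation and the strand setting were not given in the sources used here, so reads of overlapping genes cannot be told apart. Dividing each gene's values by its smallest common step gave whole reads for 100.0% of 19435 genes above 0 (tolerance 0.02 reads), 15118113 to 20146870 per library.

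Changes were estimated with limma 3.58.1 (R 4.3.3) on log2(FPKM + 1), with variances moderated along a trend, over all 8 libraries with 1 coefficient per group (4 residual degrees of freedom). A pseudocount of 1 understates the change of low genes. The 12315 genes that reached 1 FPKM in 2 or more libraries were tested two-sided, with Benjamini-Hochberg adjustment in each comparison and a threshold of 0.05. The method was tested on simulated data. Read ratios of Wnt7b have exact 95% intervals.

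The genes and lists were chosen with earlier results of these data known. Named are all genes of the set with a mean of at least 1 FPKM in a group, and of each list up to 4 called genes by size of change, from 1 FPKM in the higher group. Alternatives were other pseudocounts, filters and scalings, a replicate block, the 2 groups alone, single libraries left out and, added after seeing the data, limma-voom on the recovered reads. Same-numbered libraries were not taken as pairs, since the labels tie numbers to nothing and their deviations correlated at -0.02 to 0.202.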

Additional observations from a re-analysis of the deposited data

Results flagged for a closer look

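Signal below the filter was higher in the siHoxc8 libraries for 2 genes that the report does not test. Fzd9 had 23 and 24 reads with TGF-β+siHoxc8, against 2 and 0 in control, 5 and 0 with TGF-β and 1 and 1 with TGF-β+MetR. Without the filter on low values its change against TGF-β alone was 0.60 ± 0.07 (limma, adjusted p = 0.00249). Wnt5b had 42 and 40 reads with TGF-β+siHoxc8, against 7 and 9, 8 and 7, and 24 and 7 in the same order of groups (0.74 ± 0.12, adjusted p = 0.00831). At least 40 reads of Wnt5b and 23 of Fzd9 were thus seen in each siHoxc8 library. Both genes were picked out because of these values, and reads are not scaled to depth, which differed by up to 1.33-fold between libraries.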

How the results depend on the processing

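Of the called genes, 10 of 12 kept their call under every alternative in each main comparison, and 5 of 11, 10 of 18 and 8 of 11 did so for TGF-β+MetR against control, TGF-β+siHoxc8 against control and TGF-β+siHoxc8 against TGF-β+MetR. In that order of 6 comparisons the replicate block called 11, 12, 13, 12, 18 and 11 genes, ended the call of Wnt7b with TGF-β and made Fzd4 pass with siHoxc8. limma-voom called 13, 12, 13, 12, 17 and 11. Leaving out single libraries, which assumes that a lone library varies like the others, gave 10 to 17, 10 to 18, 10 to 15, 5 to 15, 10 to 20 and 8 to 14. A mean of at least 5 FPKM left 7 called for TGF-β+MetR against TGF-β and 7 for TGF-β+siHoxc8 against TGF-β+MetR, where fewer genes were tested. Of all 8984 genes tested there, 3472 were raised and 1884 lowered for TGF-β+MetR against TGF-β. For TGF-β+siHoxc8 against TGF-β+MetR, 2382 were higher and 2908 lower. The 2 groups alone left 6 for TGF-β+MetR against control. With median ratio rescaling the summed FPKM in control and TGF-β was 27.5 and 52.3 for Wnts, 223 and 456 for Frizzleds and 95.0 and 34.2 for R-spondins, and that of inhibitors was 52.2 in control and 68.6 with TGF-β+MetR. Signs turned only for genes not called: against TGF-β with MetR, Fzd3 with median ratio rescaling (-0.06) and quantile normalization (-0.07), and, over the fits without 1 library, Dkk3 (-0.70 to 0.01), Fzd4 (-1.17 to 0.09), Fzd3 (-0.01 to 0.28) and Sfrp4 (-0.26 to 0.23), with siHoxc8 Lrp6 (-0.36 to 0.03 over such fits), and against control with TGF-β Dkk4 (0.04 with quantile normalization). The cause was not tested. The planned edgeR test was not run because the values are FPKM. With 2 libraries per group, genes near 1 FPKM such as Wnt2, Wnt7b and Rspo3 rest on few reads, and their fold changes depend on the pseudocount. Wnt9a also rests on few, 28 to 195 reads per library.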
